A study of Arabidopsis thaliana with 4 samples.

Results

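Transcripts of the WRKY transcription factors, a plant family that binds DNA through a domain carrying the letters WRKY, were followed in leaves of Arabidopsis thaliana. The genes described are 40 named loci of the family, chosen by locus identifier and not by any measured value, of 32982 genes in the count files. WRKY15, WRKY38, WRKY40, WRKY54 and WRKY70 are not among them, and the RefSeq annotation names 32 loci with a WRKY name, those 5 included, that are not described here. Of the 40 loci, 38 had enough counts to be tested, whereas WRKY41 and WRKY74, with 34 and 32 counts over all libraries, did not. Each of 4 groups held 3 libraries. Control local leaves received water and Dox local leaves 25 um/g Dox, and control systemic and Dox systemic leaves were other leaves of the same kinds of plant. Dox is not spelled out in the labels, and for systemic leaves of either kind no treatment of their own is recorded. All plants grew on agar with sucrose in long days. The sources used here do not state strain, plant age, harvest time or how many plants a library stands for. The series title presents the experiment as mitochondrial stress whose effect is followed from treated to untreated leaves.

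WRKY proteins bind short DNA elements called W-boxes in the promoters of defence, senescence and nutrient genes, and many WRKY genes carry W-boxes themselves. Perception of microbes starts a cascade of MAP kinases, which phosphorylates some WRKY proteins and is followed within a short time by a rise of other WRKY transcripts. Salicylic acid, a defence hormone, acts through further members, some as activators of defence and others as brakes on it. A few members serve other ends, such as phosphate supply (WRKY6, WRKY42, WRKY45, WRKY75), heat tolerance (WRKY25, WRKY26, WRKY33, WRKY39) or the shaping of embryos, trichomes and seedlings (WRKY2, WRKY23, WRKY32, WRKY44).

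The promoters were read for W-boxes because several WRKY genes differed together between leaf positions, as described further on. The window was the 250 bases before the annotated start of each gene in the RefSeq TAIR10.1 annotation, matched by locus identifier for 40 of 40 members. The count files name no genome build and hold no coordinates. The W-box was searched as TTGACC or TTGACT on both strands (GGTCAA or AGTCAA on the other), and each holds the shorter core TTGAC. Of the members, 15 (37.5%) held at least 1 W-box, against 28.4% of 27443 promoters of the same length. At least 2 were held by 8 members (20%), namely WRKY17, WRKY29, WRKY30, WRKY32, WRKY33, WRKY41, WRKY45 and WRKY53, against 6.18% of all promoters. The core was present in 52.5% of members and 44.9% of all promoters. The first 3 sequences are those of WRKY genes that carry several W-boxes and were lower in systemic than local leaves of Dox plants: WRKY33 (chr2:16107985-16108234, plus strand), WRKY30 (chr5:8154711-8154960, minus strand) and WRKY53 (chr4:12393983-12394232, minus strand). The last 2 belong to the pair of members whose levels followed Dox most closely and in which no W-box was found: WRKY2 (chr5:22779364-22779613, plus strand) and WRKY21 (chr2:13033168-13033417, plus strand). Each sequence runs 5′ to 3′ on the strand of its gene and ends at the base before the start, and capitals mark W-boxes.
WRKY33: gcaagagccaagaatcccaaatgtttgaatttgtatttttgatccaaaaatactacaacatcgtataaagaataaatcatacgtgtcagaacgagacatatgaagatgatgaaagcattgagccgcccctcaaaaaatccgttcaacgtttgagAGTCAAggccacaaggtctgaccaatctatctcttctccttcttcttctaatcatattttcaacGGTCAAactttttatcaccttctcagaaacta
WRKY30: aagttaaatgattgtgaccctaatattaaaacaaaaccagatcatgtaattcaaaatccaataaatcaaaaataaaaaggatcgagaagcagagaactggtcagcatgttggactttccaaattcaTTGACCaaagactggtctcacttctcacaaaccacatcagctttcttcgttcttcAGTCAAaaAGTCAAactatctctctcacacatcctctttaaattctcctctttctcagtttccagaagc
WRKY53: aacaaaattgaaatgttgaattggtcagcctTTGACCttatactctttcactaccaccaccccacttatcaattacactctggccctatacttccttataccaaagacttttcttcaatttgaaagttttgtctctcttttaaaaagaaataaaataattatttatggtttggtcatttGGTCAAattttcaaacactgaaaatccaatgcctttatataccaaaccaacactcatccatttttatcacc
WRKY2: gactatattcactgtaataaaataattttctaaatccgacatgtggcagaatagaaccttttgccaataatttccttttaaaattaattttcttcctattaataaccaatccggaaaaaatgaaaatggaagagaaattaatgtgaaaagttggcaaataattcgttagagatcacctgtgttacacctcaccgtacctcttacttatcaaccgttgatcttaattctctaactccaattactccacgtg
WRKY21: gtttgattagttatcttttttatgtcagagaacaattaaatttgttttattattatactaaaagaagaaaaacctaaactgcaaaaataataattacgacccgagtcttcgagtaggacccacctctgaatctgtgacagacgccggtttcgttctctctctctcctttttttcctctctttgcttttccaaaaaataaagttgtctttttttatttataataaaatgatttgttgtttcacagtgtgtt

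The W-boxes of WRKY33 began 96 and 32 bases before the start, those of WRKY53 219 and 71 bases before it, and those of WRKY30 124, 69 and 61 bases before it. A match is a description of letters and does not show that a factor binds there. The printed genes with W-boxes were chosen for both traits. In systemic over local leaves of Dox plants, other tested members with several W-boxes, WRKY17, WRKY32, WRKY29 and WRKY45, were at 0.35, 0.24, 0.02 and -0.32 (log2). WRKY18, WRKY48 and WRKY51, at -1.61, -1.75 and -1.98, held no W-box. A link between W-boxes and levels was not tested.

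Per unit of transcript length, WRKY33 (AT2G38470) was the most abundant member. Its level was 565 ± 230 TPM (a level per transcript length, scaled to the library, from the counts and RefSeq exon lengths; SD, n = 12 libraries), and it encodes a MAP kinase substrate that turns on camalexin synthesis. WRKY18 (AT4G31800), a regulator of basal defence, followed at 471 ± 236 TPM. WRKY53 (AT4G23810), known for promoting leaf senescence, stood at 239 ± 73.8 TPM, WRKY46 (AT2G46400), which acts in salicylic acid defence, at 176 ± 85.7 TPM, and WRKY11 (AT4G31550), a brake on basal defence, at 144 ± 71.0 TPM. Between neighbours among these 5 the means differed by less than the larger of their 2 SDs over libraries. At the bottom stood WRKY31 at 0.321 ± 0.481 TPM, WRKY41 at 0.201 ± 0.204 TPM and WRKY74 at 0.155 ± 0.106 TPM, each with at least 1 library without a count. The 5 highest members are all known from defence or senescence.

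Total counts were even, at 18981328 to 21380652 per library, while TMM factors, which scale a library to the others, ran from 0.787 in Dox local library 1 and 0.866 in control local library 3 to 1.14 in Dox systemic library 1. The members took 0.123% to 0.346% of the counts of a library. The leaf mesophyll markers RBCS1A, CA1, LHCB3 and GLDP1 were abundant in all 12 libraries, at a summed 10700 to 19200 CPM (counts scaled to library size and TMM factor). Markers of flowers (AP1, AP3, AG) summed to at most 0.613 CPM and those of the shoot apex (STM, CLV3, WUS) to at most 0.143 CPM. Among the root markers RHD6 had no count in any library, and COBL9 and CASP1 were near 0, while SHR and SCR gave nearly all of the 20.6 to 43.6 CPM of that list.

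Libraries of one group often differed widely in WRKY levels. The median within-group SD on the log2 scale was 0.49 for the 38 tested members and 0.32 for all 19403 tested genes, while the group a library belonged to accounted for a median of 38.2% of a member's variance against 35.0% for all genes. Among members at 1 CPM or more on average, the highest library exceeded the lowest most in WRKY51 (21.3 times), WRKY18 (14.9), WRKY48 (14.5), WRKY45 (13.2) and WRKY46 (9.94). WRKY20, WRKY1 and WRKY39, in contrast, spanned only 1.36, 1.43 and 1.5 times from the lowest to the highest library. WRKY2 and WRKY21 were the 2 members with the largest share of variance between groups, at 83.2% and 78.4%.

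**Figure D1:**
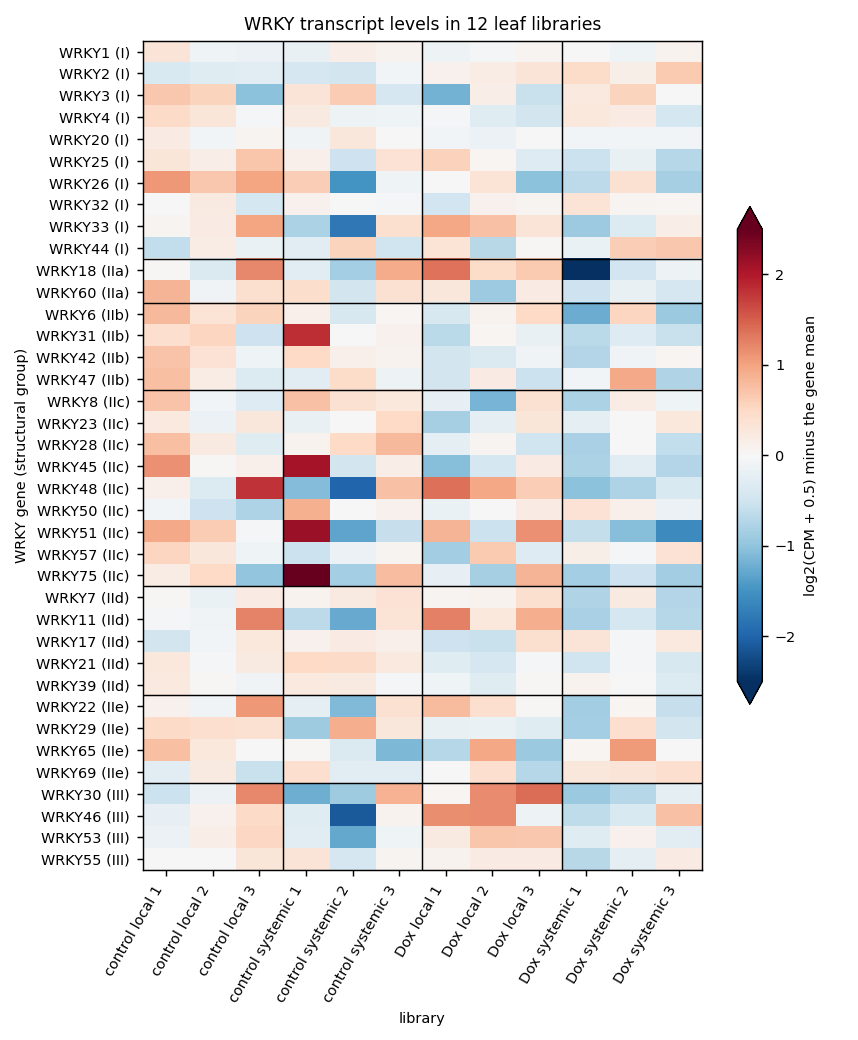
Level of 38 WRKY genes (vertical axis, by structural group) in 12 leaf libraries (horizontal axis), as log2(CPM + 0.5) minus the mean of each gene; red is above and blue below that mean, and colours are capped at the ends of the bar. WRKY18, WRKY48, WRKY11, WRKY22 and WRKY30 are red in control local library 3, WRKY31, WRKY45, WRKY51 and WRKY75 are darkest red in control systemic library 1, and WRKY2 is blue or white in control and red in Dox libraries.

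In the heat map 2 sets of members that varied between libraries of one group were picked out from these values. WRKY18, WRKY33, WRKY48, WRKY11 and WRKY22 were highest among the control local libraries in library 3 and highest among the control systemic libraries in library 3. Over all 12 libraries, control local library 3 held the highest value of 4 of the 38 members (10.5%), near the 8.58% of all genes. Control local library 1 held that of 7 members (18.4%, against 6.68% of all genes). WRKY18 had 504, 383 and 1130 CPM in control local libraries 1, 2 and 3, and 410, 272 and 928 CPM in the control systemic ones. The kinase gene MPK3, whose product acts upstream of WRKY33, ran alongside with 553, 759 and 1270 CPM in control local and 325, 168 and 793 CPM in control systemic leaves. The second set, WRKY31, WRKY45, WRKY51 and WRKY75, peaked in control systemic library 1, which held the highest value of 9 of the 38 members (23.7%, against 10.9% of all genes). In that library the camalexin enzyme gene PAD3 stood at 70.0 CPM against at most 22.6 in any other library, the salicylic acid synthesis gene ICS1 at 50.4 against at most 42.3, and the senescence marker SAG13 at 53.4 against at most 26.6. SAG12, the other senescence marker listed, had no count in any library. The part of these library differences in the results that follow was measured by leaving libraries out.

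Whether Dox changed WRKY transcripts was asked in local and in systemic leaves with edgeR's quasi-likelihood test on counts, p-values being adjusted over all 19403 genes by the Benjamini-Hochberg method. No member passed an adjusted p of 0.05 in either position, and in this test 0% of all genes did. The smallest adjusted p of a member was 0.902 in local and 0.451 in systemic leaves. DESeq2 called 0 members in local leaves, where it called 0.0412% of all genes higher and 0.0309% lower. In systemic leaves DESeq2 called WRKY2 higher and WRKY21 lower, against 0.325% and 0.376% of all genes, and limma-voom called 0 members in both positions. At an unadjusted p under 0.05, 4 of 38 members (10.5%) stood apart in local leaves, against 4.72% of all genes (2.66% higher, 2.05% lower), and 8 (21.1%) in systemic leaves, against 8.61%. As these are bulk leaf samples, a difference in the number of cells of a type and a difference in RNA per cell cannot be told apart, here or in any later comparison.

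WRKY2 (AT5G56270), which in embryos sets the polarity of the zygote and takes part in pollen development, was the member that followed Dox most closely. It had 11.6, 12.2 and 12.5 CPM in control local leaves and 16.4, 17.4 and 19.2 CPM in Dox local leaves. In systemic leaves it had 11.2, 10.9 and 14.4 CPM in control plants and 21.1, 16.8 and 24.2 CPM in Dox plants. All 6 Dox libraries therefore lay above all 6 control libraries, which held for 1 member of 38 and, in the same direction, for 0.17% of all genes (0.186% in the other, 0.356% in all). The log2 fold change was 0.55 (SE 0.17, edgeR adjusted p = 0.902) in local leaves, from 12.1 ± 0.434 to 17.7 ± 1.43 CPM (SD, n = 3). In systemic leaves it was 0.77 (SE 0.17, edgeR adjusted p = 0.451), from 12.2 ± 1.95 to 20.7 ± 3.72 CPM, and DESeq2 gave an adjusted p of 0.0227. The mean of both positions, a contrast added after the values were seen, gave 0.66 (SE 0.12, edgeR adjusted p = 0.36; DESeq2 adjusted p = 0.00268; limma-voom adjusted p = 0.368). In this contrast edgeR called 0% of all genes, and DESeq2 called 0.33% higher and 0.407% lower. Leaving out any 1 library kept this mean between 0.59 and 0.73. The gene overlaps CSN6A, a signalosome subunit gene on the opposite strand, which had 28.7 ± 1.48, 30 ± 5.68, 27.0 ± 2.41 and 29.6 ± 2.76 CPM in control local, Dox local, control systemic and Dox systemic leaves. Its log2 fold changes with Dox were 0.06 and 0.13, and since the strand setting of the counting is not given, reads of the overlap cannot be told apart.

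WRKY21 (AT2G30590), a member of the subgroup whose proteins bind calmodulin, was lower with Dox. Systemic leaves had 53.4, 52.5 and 44.5 CPM in control and 26.3, 36.4 and 28.1 CPM in Dox plants, without overlap. Local leaves had 44.9, 36.7 and 44 CPM in control and 30.4, 27.7 and 36.7 CPM in Dox plants, where the lowest control and the highest Dox library met. The log2 fold change was -0.73 in systemic leaves (SE 0.17, edgeR adjusted p = 0.451; DESeq2 adjusted p = 0.0255) and -0.40 in local leaves (SE 0.17, edgeR adjusted p = 0.902). Over both positions it was -0.57 (SE 0.12, edgeR adjusted p = 0.36; DESeq2 adjusted p = 0.00897; limma-voom adjusted p = 0.368).

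**Figure D2:**
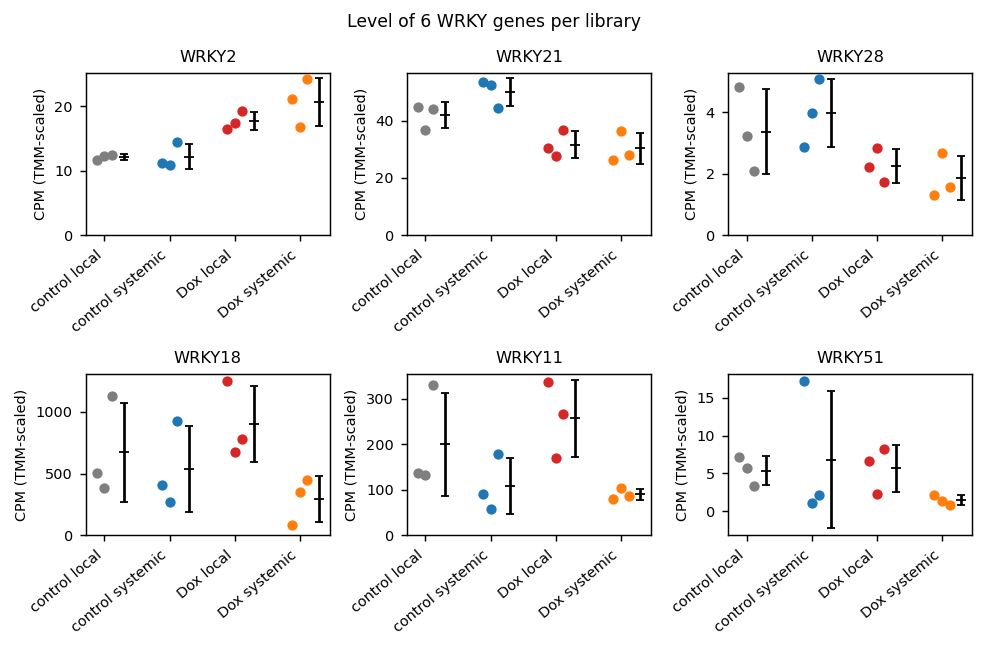
Level (vertical axis, CPM, TMM-scaled) of 6 WRKY genes in each library (points) of the 4 groups (horizontal axis), with the mean and SD of 3 libraries as black bars; the SD bar of WRKY51 in control systemic leaves passes below 0. The 6 Dox points of WRKY2 lie above its 6 control points, whereas WRKY51 has 1 control systemic library at 17.2 CPM and 2 at 1.09 and 2.17.

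In treated local leaves no member was called, and the 4 at an unadjusted p under 0.05 were WRKY2, WRKY4, WRKY21 and WRKY42. With 1 library left out the count went from 1 (control local library 1 omitted) to 5 (the third control local or the second Dox local library omitted), and it was 2 with control local library 2 or Dox local library 1 omitted. The log2 fold change was positive in 15 and negative in 23 of 38 members (60.5%, against 47.8% of all genes), from -1.26 to 0.70, with a median of -0.12 against 0.02 for all genes. Groups did not overlap in 3 members (7.89%), near the 7.54% of all genes, and these were WRKY2 on the high side (4.14% of all genes) and WRKY26 and WRKY29 on the low side (3.4%). WRKY26 (AT5G07100), a heat tolerance factor, had 37.9, 28.6 and 35.7 CPM in control and 17.7, 22.6 and 8.45 CPM in Dox local leaves, a log2 fold change of -1.07 (SE 0.51, edgeR adjusted p = 0.902). The 3 control local libraries were the highest of all 12 for this gene. WRKY29 (AT4G23550), an output of the MAP kinase cascade started by bacterial flagellin, had 5.21, 5 and 4.81 CPM in control and 3.09, 3.15 and 2.80 CPM in Dox local leaves (log2 -0.73, SE 0.48, edgeR adjusted p = 0.902). Its systemic libraries ranged more widely, from 1.72 to 7.14 CPM in control and 1.76 to 4.96 CPM in Dox plants, and the standard error pools the spread of all groups.

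Other members at the ends of the local comparison overlapped between groups. WRKY46 was at 228 ± 98.7 CPM with Dox and 140 ± 32.7 CPM with water (log2 0.70, SE 0.54), and WRKY30 (AT5G24110), which responds to reactive oxygen, at 10.8 ± 4.76 against 6.86 ± 4.89 CPM (log2 0.66, SE 0.64). WRKY50 (AT5G26170), a factor for repression of jasmonate responses by salicylic acid, was at 3.04 ± 0.45 against 2.10 ± 0.653 CPM (log2 0.53, SE 0.35). On the low side stood the phosphate regulators WRKY45, at 1.79 ± 0.989 against 3.68 ± 1.94 CPM (log2 -1.03, SE 0.70), and WRKY42, at 1.39 ± 0.257 against 2.5 ± 0.841 CPM (log2 -0.85, SE 0.38, edgeR adjusted p = 0.902). WRKY4, which acts against necrotrophic fungi, was at 19.5 ± 2.98 against 28 ± 5.19 CPM (log2 -0.52, SE 0.22, edgeR adjusted p = 0.902). Without control local library 3 and Dox local library 1 the groups of 18 members no longer overlapped, but with 2 libraries against 2 the same held for 42% of all genes, and the log2 fold change of WRKY30 was 1.69.

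In systemic leaves of Dox plants more members were lower than higher. The log2 fold change was negative in 25 of 38 members (65.8%, against 50.1% of all genes), and the median was -0.26 against 0 for all genes. Of the 8 members at an unadjusted p under 0.05, 7 (18.4%) were lower, against 4.79% of all genes, and these were WRKY7, WRKY21, WRKY28, WRKY31, WRKY45, WRKY51 and WRKY75. WRKY2 was the only one higher, where all genes gave 3.81%. The count of 8 came to 5 when the first library of either systemic group was left out, and to 4 when Dox systemic library 3 was. The leaf mesophyll markers were also lower in this comparison, with negative log2 fold changes in 4 of 4 (median -0.46) and LHCB3 the lowest at -1.45 (SE 0.51, edgeR adjusted p = 0.507), and their part in the WRKY values was not tested. Groups did not overlap in 6 members (15.8%), near the 16.4% of all genes: WRKY2 on the high side (7.96% of all genes) and WRKY8, WRKY21, WRKY28, WRKY31 and WRKY42 on the low side (8.41%). WRKY31, which is in both counts, passed the count filter through control libraries alone. These were control local libraries 1 and 2 (0.573 and 0.66 CPM) and control systemic library 1 (2.40 CPM). Its highest Dox library was at 0.326 CPM. A lower value of WRKY31 with Dox was thus favoured by the filter and is not read as a result.

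Of the lower members, WRKY28 (AT4G18170), an activator of the salicylic acid synthesis gene ICS1, had 2.86, 3.96 and 5.07 CPM in control and 1.31, 2.66 and 1.58 CPM in Dox systemic leaves. Its log2 fold change was -1.10 (SE 0.40, edgeR adjusted p = 0.519), and it stayed between -1.46 and -0.88 with any 1 library left out. WRKY8 (AT5G46350), a regulator of responses to viruses and fungi, had 2.76, 2.05 and 1.86 CPM against 0.631, 1.73 and 1.32 CPM (log2 -0.85, SE 0.58, edgeR adjusted p = 0.703). WRKY42 was at 2.27 ± 0.468 CPM in control and 1.5 ± 0.533 CPM in Dox systemic leaves (log2 -0.60, SE 0.38, edgeR adjusted p = 0.679). WRKY7, another brake on basal defence, had 62.1, 69 and 75.2 CPM against 34.6, 68.4 and 34.9 CPM (log2 -0.58, SE 0.25, edgeR adjusted p = 0.557), with 1 Dox library at the control level.

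The largest negative values belonged to WRKY75, WRKY31, WRKY51 and WRKY45, and each was smaller in size without control systemic library 1. WRKY75 (AT5G13080), which acts in phosphate starvation and senescence, had 6.35, 0.0435 and 1.19 CPM in control and 0.045, 0.187 and 0.0427 CPM in Dox systemic leaves. The log2 fold change was -4.71 (SE 1.63, edgeR adjusted p = 0.507), and -2.67 without that library. WRKY31 had 2.40, 0.305 and 0.362 CPM against 0, 0.14 and 0.0427 CPM, a log2 fold change of -3.95 (SE 1.28, edgeR adjusted p = 0.487), and -2.34 without the library. WRKY51 (AT5G64810), a partner of WRKY50, had 17.2, 1.09 and 2.17 CPM against 2.12, 1.40 and 0.811 CPM, a log2 fold change of -2.24 (SE 0.90, edgeR adjusted p = 0.542), and -0.17 without it. WRKY45 (AT3G01970), which raises phosphate uptake, had 11.8, 1.61 and 2.74 CPM against 1.17, 1.92 and 1.24 CPM, a log2 fold change of -1.89 (SE 0.71, edgeR adjusted p = 0.532), and -0.58 without it. In these 4 genes library 1 was far above both other control systemic libraries, and 3 of the 4 overlapped between the groups. WRKY28 and WRKY21, in contrast, had values of -1.28 and -0.67 without the same library.

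**Figure D3:**
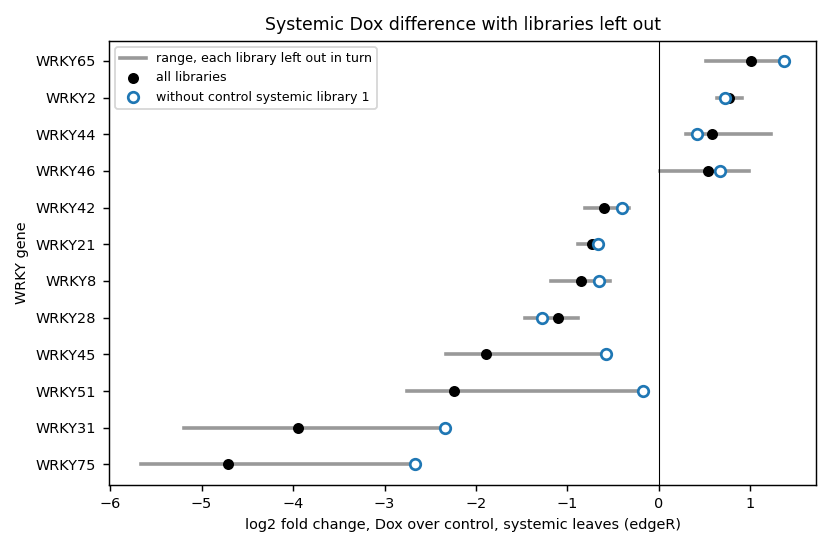
Log2 fold change of 12 WRKY genes (vertical axis) with Dox in systemic leaves (horizontal axis, edgeR) with all libraries (black), without control systemic library 1 (open blue) and over all fits that leave out 1 library (grey range). WRKY51 goes from -2.24 to -0.17 and WRKY45 from -1.89 to -0.58 without that library, whereas WRKY2 goes from 0.77 to 0.72.

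On the high side in systemic leaves stood WRKY65 at 4.22 ± 2.14 against 2.09 ± 0.97 CPM (log2 1.01, SE 0.61), the trichome gene WRKY44 at 1.41 ± 0.564 against 0.935 ± 0.591 CPM (log2 0.58, SE 0.60) and WRKY46 at 129 ± 70.3 against 88.8 ± 54.3 CPM (log2 0.54, SE 0.54). Their groups overlapped. With 1 library left out these values ranged from 0.51 to 1.37, from 0.30 to 1.23 and from 0.01 to 0.98, the last falling to 0.01 without Dox systemic library 3 and 0.12 without control systemic library 2. WRKY33 had 359, 179 and 825 CPM in control and 329, 487 and 700 CPM in Dox systemic leaves (log2 0.15, SE 0.49, edgeR adjusted p = 0.956), and 650, 716 and 1230 CPM against 1210, 1030 and 777 CPM in local leaves (log2 0.22, SE 0.49, edgeR adjusted p = 0.944). No difference with Dox was thus detectable for the most abundant member beyond the spread between libraries.

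**Figure D4:**
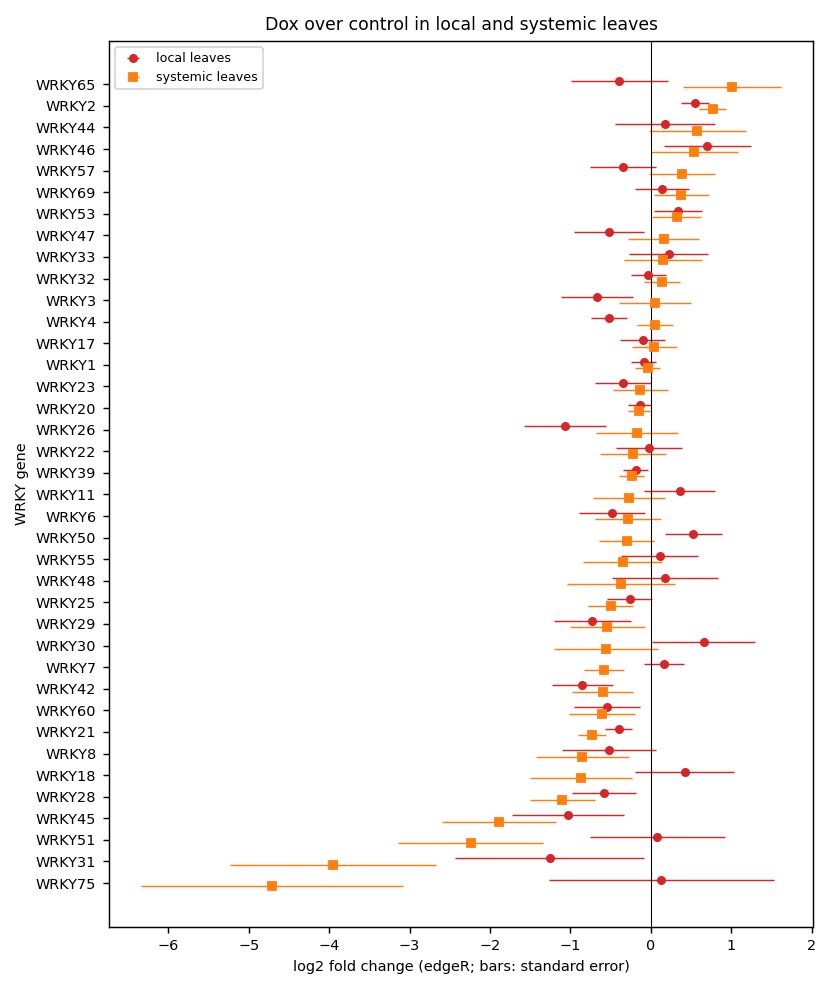
Log2 fold change of 38 WRKY genes (vertical axis) with Dox over control in local and in systemic leaves (horizontal axis, edgeR; bars are standard errors). Most systemic values lie left of 0, with WRKY75 at -4.71 and WRKY31 at -3.95 having the widest bars, and WRKY2 is right of 0 in both positions.

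Sorted by role, the 4 phosphate regulators WRKY6, WRKY42, WRKY45 and WRKY75 had negative values in systemic leaves in 4 of 4 (median -1.24) and in local leaves in 3 of 4 (median -0.66), where 50.1% and 47.8% of all genes were negative. The systemic median rests on control systemic library 1, without which WRKY42, WRKY45 and WRKY75 were at -0.40, -0.58 and -2.67. Of the 6 outputs of the immune MAP kinases, WRKY8, WRKY22, WRKY25, WRKY28, WRKY29 and WRKY33, 5 were negative in each position, with medians of -0.39 and -0.52 in local and systemic leaves. The 8 tested salicylic acid and basal defence members were positive in 6 in local (median 0.22) and in 2 in systemic leaves (median -0.48). The 4 brakes on basal defence, WRKY7, WRKY11, WRKY17 and WRKY48, had medians of 0.17 and -0.32, the 4 heat members -0.23 and -0.20, and the 5 members of development and light -0.03 and 0.14. The 8 senescence members, which include WRKY45 and WRKY75, had medians of 0.05 and -0.31. By structure, the group III genes WRKY30, WRKY46, WRKY53 and WRKY55 were positive in 4 of 4 in local leaves (median 0.50) and in 2 of 4 in systemic leaves (median -0.01), and 8 of 9 group IIc genes were negative in systemic leaves (median -0.85). Group IIb, which includes WRKY31, was negative in 4 of 4 in local leaves (median -0.68) and in 3 of 4 in systemic leaves (median -0.44). The local and systemic medians were -0.12 and 0.05 in group I and -0.06 and -0.74 in group IIa. They were -0.10 and -0.27 in group IId and -0.20 and 0.08 in group IIe. Group IIc includes WRKY45, WRKY51 and WRKY75, which were at -0.58, -0.17 and -2.67 without control systemic library 1. WRKY51 is also among the salicylic acid members. These lists were drawn up with earlier results of these data known and carry no test.

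Whether the difference with Dox was unlike in the 2 positions was tested by their difference, local minus systemic. At an unadjusted p under 0.05, 1 member stood apart (2.63%), WRKY75, against 5.2% of all genes, and no member and 0% of all genes passed the adjusted threshold in edgeR. DESeq2 and limma-voom each called 0 members. The mesophyll markers were positive in 4 of 4 (median 0.83), and their part in the WRKY values was not tested. For WRKY75 the difference was 4.84 on the log2 scale (SE 2.14, edgeR adjusted p = 0.832), and 2.77 without control systemic library 1. WRKY31 had 2.68 (SE 1.77) and WRKY51 2.31 (SE 1.22), which were 1.06 and 0.22 without that library, and WRKY18 had 1.29 (SE 0.89). At the other end were WRKY65 at -1.39 (SE 0.85), WRKY26 at -0.90 (SE 0.72), WRKY57, a drought and senescence factor, at -0.73 (SE 0.58) and WRKY3, a paralog of WRKY4, at -0.72 (SE 0.64). For WRKY2 it was -0.22 (SE 0.24, edgeR adjusted p = 0.867) and for WRKY21 0.32 (SE 0.24, edgeR adjusted p = 0.832).

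Leaf position was compared within control and within Dox plants; each of these comparisons shares a group with each Dox comparison. In control plants, systemic and local leaves differed at an unadjusted p under 0.05 in 2 of 38 members (5.26%, against 6.88% of all genes), 1 higher (5.02% of all genes) and 1 lower (1.85%). That count was 0 without control local library 3 and 7 without control systemic library 3. In edgeR no member and 0% of all genes passed the adjusted threshold, nor did any member in limma-voom or in DESeq2, which called 0.268% of all genes higher and 0.0258% lower. WRKY50 had 2.82, 1.93 and 1.54 CPM in local and 5.94, 3 and 3.26 CPM in systemic leaves, a log2 fold change of 0.95 (SE 0.35, edgeR adjusted p = 0.633), and the groups did not overlap. WRKY53 had 187, 232 and 298 CPM in local and 172, 85.0 and 193 CPM in systemic leaves (log2 -0.67, SE 0.30, edgeR adjusted p = 0.706). Groups did not overlap in 3 members (7.89%, against 13% of all genes, 8.03% higher and 4.96% lower), the others being WRKY26 (log2 -1.05, SE 0.51) and WRKY6 (log2 -0.64, SE 0.41), both lower in systemic leaves.

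Control libraries with the same number deviated together, with correlations of 0.291, 0.399 and 0.704. Libraries 1 and 2 also did so across numbers (0.221 and 0.177), while library 3 went against both (-0.527 to -0.322). The numbers therefore hardly single out pairs 1 and 2. The comparison was also fitted by number within control plants. In that fit WRKY48 (AT5G49520), a repressor of basal defence, was lower in systemic leaves at a log2 fold change of -1.33 (edgeR with replicate block, adjusted p = 0.0423), and it was 1 of 71 genes called. At an unadjusted p under 0.05 the paired fit had 11 of 38 members and 3214 of 19403 genes. WRKY48 had 40, 28.8 and 130 CPM in control local and 17, 8.97 and 61.2 CPM in control systemic libraries 1, 2 and 3, lower in each of the 3 pairs. Without the pairing it was -1.19 (SE 0.67, edgeR adjusted p = 0.77), and -0.25 without control local library 3. WRKY33 was also lower in each pair, by the values given above (unpaired log2 -0.93, SE 0.49, edgeR adjusted p = 0.761). The unpaired values of WRKY75 (2.27, SE 1.36), WRKY31 (1.20, SE 1.04) and WRKY45 (0.54, SE 0.68) rested on control systemic library 1 and were 0.21, -0.42 and -0.78 without it, and WRKY65 was at -0.92 (SE 0.61).

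In Dox plants 7 members (18.4%) were lower in systemic than in local leaves at an unadjusted p under 0.05 and none was higher, against 10.3% of all genes lower and 7.68% higher (17.9% in all). These were WRKY11, WRKY18, WRKY25, WRKY30, WRKY48, WRKY51 and WRKY53. No member passed the adjusted threshold in edgeR (smallest adjusted p = 0.219; 0.00515% of all genes passed), limma-voom called 0 members, and DESeq2 called 1, WRKY11, with 1.96% of all genes called lower and 1.1% higher. Groups did not overlap in 7 members, all lower in systemic leaves (18.4%, against 11.8% of all genes in that direction, 11.9% in the other and 23.7% in either). They were WRKY11, WRKY18, WRKY30, WRKY33, WRKY48, WRKY51 and WRKY53. Of these 7, 4 had a W-box in the window described above (WRKY11, WRKY30, WRKY33 and WRKY53), against 37.5% of all members and 28.4% of all promoters. WRKY18, WRKY48 and WRKY51 had none, and a link was not tested.

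WRKY11 had 336, 169 and 266 CPM in Dox local and 79.9, 104 and 86.1 CPM in Dox systemic leaves. Its log2 fold change was -1.52 (SE 0.45, edgeR adjusted p = 0.219; DESeq2 adjusted p = 0.0409), and the lowest local library exceeded the highest systemic one. WRKY18 had 1250, 671 and 776 CPM against 83.9, 350 and 449 CPM (log2 -1.61, SE 0.64, edgeR adjusted p = 0.247). WRKY48 had 97.0, 71.9 and 56.5 CPM against 17.8, 21.2 and 28.1 CPM (log2 -1.75, SE 0.68, edgeR adjusted p = 0.245). In both genes the lowest local library lay above the highest systemic one. The local and systemic SDs were 307 and 189 CPM in WRKY18, and 20.4 and 5.21 CPM in WRKY48. In control plants the groups overlapped, but each systemic library was below the local library of the same number in 3 of 3 pairs for both. The same held for WRKY11, WRKY25, WRKY30, WRKY33 and WRKY53, but not for WRKY51, at 7.16 CPM in local and 17.2 CPM in systemic library 1. These genes were picked for their values in Dox plants, and the pairs are by column number alone. The share of all genes lower in 3 of 3 pairs is not given here, so no position effect is drawn from this.

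WRKY30 had 5.41, 12.4 and 14.5 CPM in Dox local and 2.48, 2.95 and 4.27 CPM in Dox systemic leaves (log2 -1.74, SE 0.66, edgeR adjusted p = 0.24). WRKY51 had 6.6, 2.23 and 8.24 CPM against 2.12, 1.40 and 0.811 CPM (log2 -1.98, SE 0.89, edgeR adjusted p = 0.277). WRKY53 had 241, 337 and 331 CPM against 168, 222 and 172 CPM (log2 -0.69, SE 0.30, edgeR adjusted p = 0.258). The gap between groups was narrow next to the spread within them in each of these genes and in WRKY33. The lowest local and highest systemic libraries had 5.41 and 4.27 CPM in WRKY30, and 2.23 and 2.12 CPM in WRKY51. They had 241 and 222 CPM in WRKY53, and 777 and 700 CPM in WRKY33. WRKY33 had a log2 fold change of -0.99 (SE 0.49, edgeR adjusted p = 0.304) and WRKY25, a heat and MAP kinase pathway member, -0.61 (SE 0.28, edgeR adjusted p = 0.278). WRKY75 had the lowest value, -2.57, with an SE of 1.66, and 1 of its Dox local libraries was at 0.0543 CPM.

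Leaving out Dox local library 1, which had the highest WRKY18 and WRKY48 levels of the Dox plants, gave -1.30 for WRKY18, -1.52 for WRKY48, -1.86 for WRKY51 and -2.06 for WRKY30, and 3 members in place of 7 at an unadjusted p under 0.05. Over all fits that left out 1 library, this count of members ranged from 1 to 7. The leaf mesophyll markers were also lower in this comparison: 4 of 4 had negative log2 fold changes, and they summed to 16100 to 19200 CPM in Dox local and 10700 to 15200 CPM in Dox systemic leaves. CA1 had -0.80 (SE 0.34, edgeR adjusted p = 0.255) and GLDP1 -0.89 (SE 0.34, edgeR adjusted p = 0.24). In systemic over local leaves of control plants the markers were positive in 4 of 4 (median 0.24). With Dox in local leaves they were positive in 3 of 4 (median 0.51). The part of these markers in the WRKY values was not tested. At the other end of systemic over local leaves in Dox plants WRKY3 was at 0.72 (SE 0.45), WRKY44 at 0.68 (SE 0.60), WRKY65 at 0.47 (SE 0.60) and WRKY47 at 0.46 (SE 0.44). Over all members the median was -0.11 against 0.02 for all genes, while with scaling by total counts alone it was 0.18 against 0.31, so that the members stayed below the median gene and the sign turned.

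**Figure D5:**
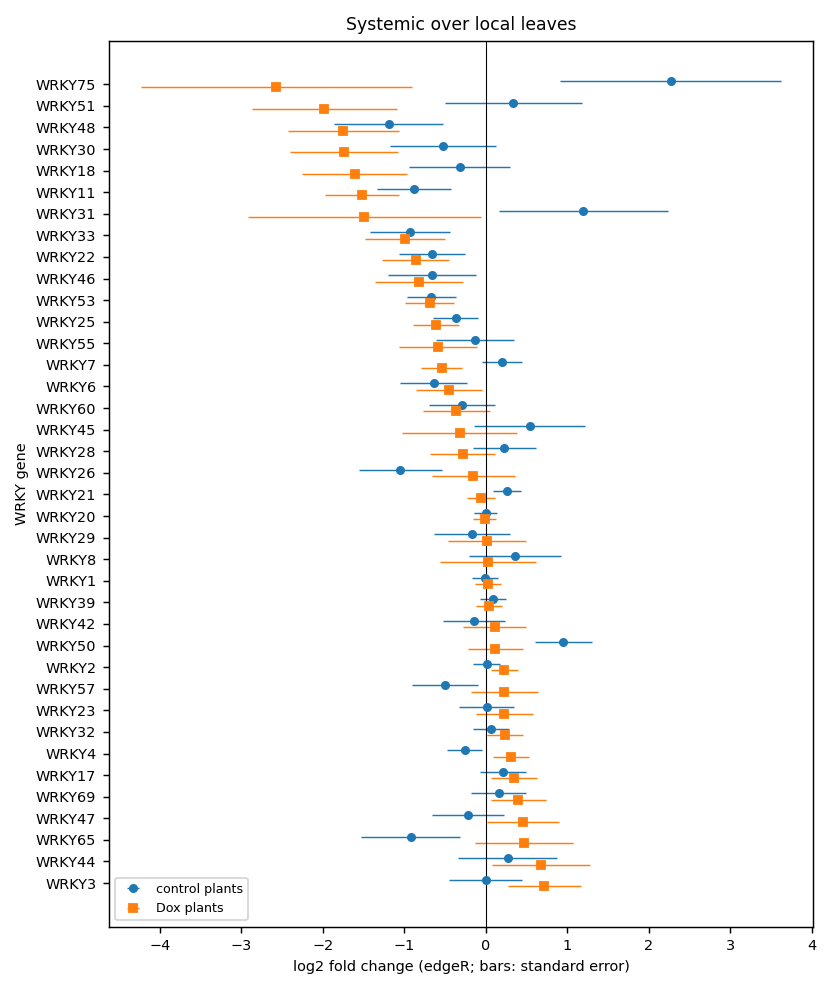
Log2 fold change of 38 WRKY genes (vertical axis) for systemic over local leaves in control and in Dox plants (horizontal axis, edgeR; bars are standard errors). WRKY51, WRKY48, WRKY30, WRKY18 and WRKY11 lie between -1.98 and -1.52 in Dox plants, and WRKY75, WRKY51, WRKY31 and WRKY45 lie right of 0 in control plants, where control systemic library 1 is high.

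The genes known to act before and after WRKY factors were read in the same fits. Of the MAP kinase cascade, 8 of 8 genes were tested. In Dox plants MPK3 had 1640, 1390 and 1020 CPM in local and 350, 438 and 714 CPM in systemic leaves, without overlap (log2 -1.43, SE 0.52, edgeR adjusted p = 0.232), and MEKK1, at the head of the cascade, was at -1.02 (SE 0.54). MPK6, which shares substrates with MPK3, was at 0.06 (SE 0.17). With Dox, the only cascade gene at an unadjusted p under 0.05 within a position was MKK1, a kinase that acts with MEKK1 and MPK4. It had 75.2, 55.6 and 43.9 CPM in control and 23.9, 42.8 and 19.8 CPM in Dox systemic leaves (log2 -1.02, SE 0.32, edgeR adjusted p = 0.481).

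VQ proteins bind WRKY proteins and alter their activity, and 6 of 9 listed genes were tested. SIB1, which activates WRKY33 in defence against fungi, had 97.8, 70.1 and 80.2 CPM in Dox local and 28.8, 46.5 and 48.9 CPM in Dox systemic leaves (log2 -1, SE 0.28, edgeR adjusted p = 0.217). It was at -0.70 in the same comparison of control plants (SE 0.28, edgeR adjusted p = 0.669) and at -0.63 with Dox in systemic leaves (SE 0.28, edgeR adjusted p = 0.571). IKU1, a seed size regulator, was at -0.44 in systemic over local control leaves (SE 0.16, edgeR adjusted p = 0.627). MKS1, which ties WRKY33 to MPK4, was at 0.51 (SE 0.43) in local and 0.21 (SE 0.42) in systemic leaves with Dox. SIB2 and VQ12 had no count in any library.

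Of 7 listed target genes, 6 were tested. The WRKY33 targets PAD3 and CYP71A13, both enzymes of camalexin synthesis, were at -2.86 (SE 1.34) and -3.74 (SE 1.71) with Dox in systemic leaves, and here too control systemic library 1 stood out, with 70.0 and 11.1 CPM against at most 7.70 and 1.03 CPM in the other control systemic libraries. The difference between positions for CYP71A13 was 5.11 (SE 2.29, edgeR adjusted p = 0.832). ICS1, a target of WRKY28, had 16.3, 20.6 and 8.19 CPM in control and 42.3, 30.5 and 34.7 CPM in Dox local leaves, without overlap (log2 1.25, SE 0.58, edgeR adjusted p = 0.902). PHO1, a phosphate exporter gene that WRKY6 and WRKY42 repress, was at -1.09 in systemic over local leaves of Dox plants (SE 0.40, edgeR adjusted p = 0.23), with 7.20, 3.96 and 4.89 against 2.61, 2.71 and 2.18 CPM. PHT1;1, a phosphate transporter gene that WRKY45 and WRKY42 activate, had 5 counts over all libraries. GL2, a trichome gene downstream of WRKY44, was at 0.83 over both positions with Dox (SE 0.37, edgeR adjusted p = 0.578).

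Some of the remaining members varied little. WRKY20 had 31.4 ± 3.10, 31.3 ± 4.31, 28.4 ± 1.72 and 28.3 ± 0.0693 CPM in control local, control systemic, Dox local and Dox systemic leaves, with a within-group SD of 0.13 on the log2 scale, the lowest of the tested members. WRKY1 had 24.0 ± 4.58, 23.8 ± 3, 22.6 ± 1.57 and 23.1 ± 1.57 CPM in the same order. WRKY39, a heat tolerance factor, had 31.1 ± 3.63, 33 ± 3.32, 27.2 ± 3.31 and 28 ± 4.09 CPM, and WRKY32, which acts in light responses of seedlings, 11.5 ± 2.66, 12.1 ± 0.708, 11.3 ± 2.48 and 13.4 ± 1.62 CPM. The groups of these 4 genes overlapped in every comparison. WRKY17, WRKY23, WRKY60, WRKY69 and WRKY55 had log2 fold changes between -0.61 and 0.40 in the Dox and position comparisons, and WRKY22, an early flagellin response gene at 62.3 to 114 CPM by group mean, had its lowest value, -0.86 (SE 0.41, edgeR adjusted p = 0.292), in systemic over local leaves of Dox plants. WRKY41 and WRKY74 stayed at or below 0.407 CPM in all libraries.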

How the data were processed

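The data are whole-number read counts per gene, which the authors deposited without normalization as 3 columns for each of 4 leaf groups. Among the tools in the submitters' processing notes are HISAT2, which aligns reads, and featureCounts 1.6.3, which counts them per gene; Trimmomatic 0.39, FastQC 0.11.9 and DESeq2 are listed too. No source used here states the build, annotation, strand setting or how reads shared by several genes were counted. The labels' protocols name a TruSeq kit for mRNA and a SMARTER kit for the libraries. Each column was taken as a library. Nothing says that libraries are separate plants or cultures, and p-values therefore measure only their spread, possibly a technical one.

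Counts were tested with edgeR 4.0.16 in R 4.3.3 (quasi-likelihood, TMM, filterByExpr at a minimum count of 10) on 4 group means over 12 libraries, which left 19403 genes and 8 residual degrees of freedom. P-values were adjusted over all genes and called under 0.05. The fit was tested on simulated data. DESeq2 1.42.0, limma 3.58.1 (voom), other scalings and filters, a replicate block and libraries left out were alternatives. TPM used RefSeq TAIR10.1 exon lengths.

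Library numbers are column numbers. Same-numbered libraries deviated together in all 3 pairs of control local and control systemic leaves (correlations 0.291, 0.399 and 0.704), and in no other comparison in all 3. Control libraries 1 and 2 also correlated across numbers (0.221 and 0.177). A replicate block in control plants alone was added after the data were seen. Members, lists and the rule for named genes were chosen with earlier results of these data known. The rule took, per comparison, the 4 highest and 4 lowest log2 fold changes among members at a mean of 1 CPM or more in either group, then members without overlap with Dox, the extremes of level and spread, and list genes at an unadjusted p under 0.05 or at the ends of their list. WRKY4, WRKY6, WRKY7, WRKY22, WRKY25, the steady members, several members between leaf positions and some pathway genes were named after their values were seen.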

Additional observations from a re-analysis of the deposited data

How the results depend on the processing

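The tests limit what can be said: with 3 libraries a group and a within-group SD of 0.49 (log2) for the median member, small differences were not detectable. No member was called by edgeR in any comparison under the other scalings, filters, sample sets or left-out libraries, except WRKY48 in the paired fit. DESeq2 called 2 members in systemic leaves, 1 in systemic over local leaves of Dox plants and 2 over both positions (WRKY2 and WRKY21), and put 2 at an unadjusted p under 0.05 in the difference of positions. With the replicate block on all libraries that last count was 2 and no member was called; the block within control plants called 1. Same-numbered libraries correlated at -0.286, 0.219 and 0.0353 (control and Dox local), 0.126, -0.0879 and 0.462 (control and Dox systemic) and -0.0998, -0.00816 and 0.000873 (Dox plants), so the numbers pair nothing there. Members whose groups did not overlap in local leaves numbered 5 with RLE factors and 5 with total counts; between positions in control plants they numbered 6 with total counts. Without control local library 3 and Dox local library 1 these numbers were 18 and 8, and the difference of positions had 2 members at an unadjusted p under 0.05. Total counts moved the median of all genes to 0.31 in systemic over local leaves of Dox plants (members 0.18) and to -0.24 in the difference of positions (members -0.21), so the members' medians changed sign with the scale. With 1 library left out, members without overlap ranged from 4 to 16 (local), 7 to 12 (systemic), 3 to 14 (position, control plants) and 8 to 15 (position, Dox plants), in part because smaller groups overlap less. The medians ranged from -0.45 to -0.11 (systemic), -0.49 to 0 (position, Dox plants) and -0.11 to 0.30 (difference of positions), and the members at an unadjusted p under 0.05 in that difference from 0 to 3. In systemic over local leaves, leaving out 1 library took WRKY31 from -0.42 to 1.64 and WRKY45 from -0.78 to 1.06 in control plants, the negative values being those without control systemic library 1. In Dox plants it took WRKY65 from -0.03 to 1.52 and WRKY47 from -0.15 to 0.79, the negative values being those without Dox systemic library 2; the cause was not tested. Of the log2 fold changes of members named by the rule, 446 under other settings and 416 with a library left out kept their direction and their side of the threshold. In that set WRKY2 (systemic leaves and over both positions) and WRKY21 (systemic leaves) passed the threshold only under DESeq2, and WRKY48 only under the block in control plants. Outside that set, WRKY21 over both positions and WRKY11 in systemic over local leaves of Dox plants also passed it only under DESeq2.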
